A study of Mus musculus with 7 samples.

Results

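The genes described here are 9 genes of 2 receptor tyrosine kinase systems in mouse embryonic stem cells (ESCs). They were chosen by name, as Kit and its ligand Kitl, the FGF receptors Fgfr1 and Fgfr2, and 5 genes that FGF-ERK signalling is known to induce (Spry2, Spry4, Dusp6, Etv4 and Etv5). The choice was made with earlier results of these data known. All 9 were found in the GENCODE M1 annotation. Each had enough bases of its own to be counted, among 31498 counted genes of 37310 annotated.

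The cells were F123 ESCs, a hybrid line from a Mus musculus castaneus (CAST) and a 129 parent, and the question of the study was what an enhancer far downstream of Sox2 does for that gene and for the ESC state. Polyadenylated RNA was sequenced once from each of 4 genotypes. CAST+/129+ is the wild type, CAST+/129- lacks the distal Sox2 super-enhancer on the 129 copy, CAST-/129+ lacks it on the CAST copy, and CAST-/129- lacks it on both. Each deletion line came from 1 CRISPR clone that was selected with puromycin and recovered on embryonic fibroblast feeders, and per the study's methods all cells were passaged without feeders on gelatin before harvest. The histone marks H3K4me3 and H3K27ac were profiled by ChIP-seq in unedited F123 cells, and H3K27ac also in J1 cells, another ESC line.

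Every condition had 1 library, so no genotype has a replicate and no test between genotypes was run. A clone and its genotype cannot be told apart. Intervals in brackets are exact 95% intervals for counting error only, and since both ends of a fragment can be counted they are narrower than they would be for fragments. The 4 RNA libraries held between 7557984 and 33684661 distinct alignments, with the wild type deepest, and between 5831199 and 24848422 of these lay on counted genes. RNA levels are FPKM, here the alignments per kilobase of counted exon, scaled to the alignments on genes of each library. A gene was called past 3-fold when its FPKM plus 4 was at least 3 times above or below that of the wild type, which is 1.58 on the log2 scale. The target of the deleted enhancer, Sox2, was at 46.9% of wild type in CAST+/129-, at 41.8% in CAST-/129+ and at 4.23% in CAST-/129-, in the order of the labels. Of 10 ESC markers, all were detected in wild type (Pou5f1 at 188.3 FPKM), and 2, 2 and 6 were past 3-fold lower in the 3 clones.

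Kit is the receptor for stem cell factor, the product of Kitl, and is known for its part in germ cells, blood stem cells and melanocytes, while naive ESCs also express it. FGF receptors signal through RAS and the kinases MEK and ERK, which in ESCs promote exit from the naive state. ERK activity switches on the ETS factors Etv4 and Etv5 and the feedback inhibitors Sprouty and Dusp6, so the RNA of these genes is often read as a sign of ERK output, although ERK activity itself was not measured here.

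The promoters of the genes furthest from wild type in a clone by plain ratio of FPKM (Kit, Kitl and Etv4) are shown first. Each is given as the 250 bases before the annotated gene start in NCBIM37 (mm9), with CpG dinucleotides in capitals. The Kit promoter lies at chr5:75970691-75970940 on the plus strand, that of Kitl at chr10:99478014-99478263 on the plus strand and that of Etv4 at chr11:101646686-101646935 on the minus strand.
Kit promoter: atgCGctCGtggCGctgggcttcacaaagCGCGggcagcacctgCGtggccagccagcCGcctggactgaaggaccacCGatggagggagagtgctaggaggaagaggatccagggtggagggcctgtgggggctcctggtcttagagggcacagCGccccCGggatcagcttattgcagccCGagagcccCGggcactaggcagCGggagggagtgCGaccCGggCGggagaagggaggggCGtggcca
Kitl promoter: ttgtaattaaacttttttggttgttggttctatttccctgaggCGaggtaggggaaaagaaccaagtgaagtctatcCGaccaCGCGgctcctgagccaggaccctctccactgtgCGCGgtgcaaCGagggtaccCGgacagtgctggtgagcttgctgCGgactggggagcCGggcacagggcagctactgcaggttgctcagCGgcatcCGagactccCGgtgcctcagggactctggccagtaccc
Etv4 promoter: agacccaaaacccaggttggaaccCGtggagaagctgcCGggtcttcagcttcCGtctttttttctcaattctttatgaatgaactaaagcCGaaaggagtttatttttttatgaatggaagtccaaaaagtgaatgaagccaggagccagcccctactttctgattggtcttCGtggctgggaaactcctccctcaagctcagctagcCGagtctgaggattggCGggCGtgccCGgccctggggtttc

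The 250-base windows held 17 CpG in Kit, 13 in Kitl and 9 in Etv4. In the window from 250 bases before to 50 after the annotated start, where the median protein-coding promoter had 11 CpG, the counts ran from 2 in Fgfr1 to 28 in Spry2. That window was searched on both strands for an ETS core (CCGGAAG), an octamer core (ATGCAAA) and a Sox core (CATTGTT), which 10.8%, 4.40% and 3.56% of 22380 promoters hold. The only match among the 9 genes was 1 octamer core in Fgfr1, so these letters were not in the windows of the other 8 genes. At the transcript start with the most H3K4me3, Fgfr1 had 23 CpG and its octamer core was no longer in the window. Kitl, whose start moved by 196 bases, had 1 ETS core there. For Fgfr2 both windows lay at the same start, 1004 bases from that of Ctbp2. An Fgfr2 start away from other genes was not searched.

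Kit had 29.3 FPKM in wild type, against 5.13 in CAST+/129-, 7.70 in CAST-/129+ and 3.56 with both copies deleted. All 3 deletion clones lay far below the wild type, and their own counting intervals did not overlap. The counts behind these levels were 4244, 373, 272 and 121 alignments. The percentage of the wild type level left was 17.5% (15.7 to 19.5) for CAST+/129-, 26.3% (23.2 to 29.7) for CAST-/129+ and 12.1% (10.1 to 14.6) for CAST-/129-. The log2 ratios after adding 4 were -1.87, -1.51 and -2.14, so Kit passed 3-fold in CAST+/129- and in CAST-/129- and fell short of it in CAST-/129+, where it passed at -1.80 with a pseudo-value of 1 and at -1.87 after division by Actb. Actb itself was at 165%, 151% and 167% of wild type in the 3 clones. Dividing by it lowered the median log2 ratio of genes with a mean of at least 5 FPKM to -0.54, -0.50 and -0.64. With a pseudo-value of 10 the Kit ratios of CAST+/129- and CAST-/129- were -1.38 and -1.53, short of 3-fold. Between the monoallelic clones, Kit in CAST-/129+ was at 149.9% (127.8 to 175.8) of CAST+/129-. Its place among all counted genes moved from percentile 90.1 of FPKM in wild type to percentile 66.7 in CAST-/129-.

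The lower Kit level was seen along the whole transcript. Kit (ENSMUSG00000005672.6, chr5:75970941-76052747, plus strand) has 21 exons in the annotation, and each was below 50% of wild type in CAST+/129- and in CAST-/129-, as were 18 of 21 in CAST-/129+. Relative to wild type, the median exon stood at 18.5%, 26.2% and 13.1% in the 3 clones. The highest single value, 82.0% for exon 13 in CAST-/129+, rested on 16 alignments. The 24 expressed neighbours of Kit, 12 on each side, had median log2 ratios of -0.03, 0.00 and -0.08 in the 3 clones. Among them Pdgfra, a related receptor, was past 3-fold lower in each clone (-2.25, -2.02 and -1.65), Igfbp7 was past 3-fold higher in each, and the other 22 stayed under 3-fold.

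**Figure D1:**
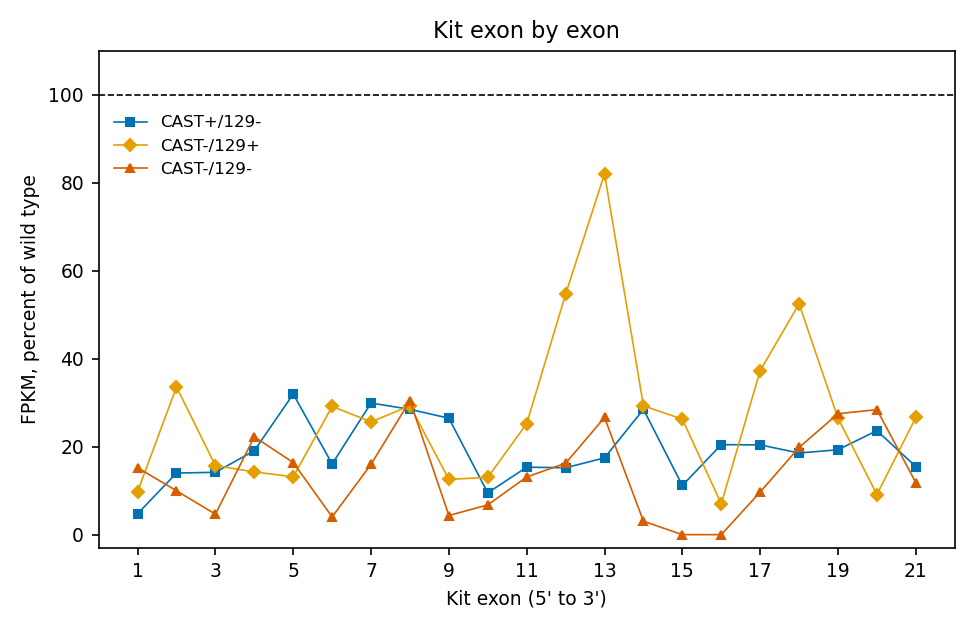
Level of each of the 21 Kit exons, in order from 5′ to 3′, as a percentage of wild type in the 3 deletion clones, with 100% dashed. Exon 13 of CAST-/129+ is the highest point at 82.0%, and every exon of CAST+/129- and CAST-/129- lies below 50%.

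Kit RNA comes in isoforms that differ by 4 residues beside the membrane, set by a choice of 5′ splice site at the end of exon 9. The end of that exon, chr5:76035154-76035183 on the plus strand, is printed with the bases of the longer form in capitals.
Kit exon 9 end: ttaactttgcatttaaagGTAACAACAAAG
In wild type, 22 alignments ended at the shorter exon end and 20 at the longer one, a share of 52.4% for the shorter form (36.4 to 68.0). Both forms were present. The deletion clones had between 1 and 4 such alignments each, too few to compare. This count was added after the data had been seen.

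Kitl went the other way. Kitl had 0.344 FPKM in wild type, against 1.46 in CAST+/129-, 7.77 in CAST-/129+ and 3.79 with both copies deleted. It was the lowest of the 9 genes in wild type and every deletion clone had more of it, with no overlap of the counting intervals. The levels rested on 50, 106, 275 and 129 alignments. The percentage of wild type was 423% (299 to 604) for CAST+/129-, 2256% (1664 to 3113) for CAST-/129+ and 1099% (787 to 1556) for CAST-/129-. With 4 added to each low FPKM the log2 ratios were 0.33, 1.44 and 0.84, and none passed 3-fold, while with a pseudo-value of 1 those of CAST-/129+ and CAST-/129- were 2.71 and 1.83 and passed it. Kit and Kitl were level with each other in CAST-/129+ (7.70 and 7.77 FPKM) and in CAST-/129- (3.56 and 3.79 FPKM), whereas in wild type Kit had 29.3 FPKM and its ligand 0.344.

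Stem cell factor is made in a form that is shed and a form that stays on the membrane, and an exon of 84 bases is skipped in the latter. That exon had 0, 2, 4 and 6 alignments in the 4 libraries, in the order from wild type to CAST-/129-, which did not allow the forms to be compared. Embryonic fibroblasts also make Kitl, and fibroblast markers differed between the libraries. Of 25 such markers, all counted, 5 were past 3-fold higher in CAST+/129-, 5 in CAST-/129+ and 16 in CAST-/129-, with none lower. Summed over the list, the level was 433.9 FPKM in wild type and 601.1, 696.3 and 1761 in the clones, in the same order. Kitl was highest in CAST-/129+ and the markers were highest in CAST-/129-. Of the defining markers, Col1a1 went from 3.48 FPKM to 39.0, 38.9 and 174.5. Lum had 0 alignments in wild type and 5, 2 and 104 in the clones. Fap had 0 in wild type and 8, 2 and 6 in the clones. Thy1 was at 49.8%, 54.9% and 242.0% of wild type. Below the wild type were 4 of the 25 in CAST+/129-, 3 in CAST-/129+ and 0 in CAST-/129-. Fn1 and Sparc, 2 of the 3 highest of the list, were at 57.6% and 79.4% of wild type in CAST+/129-, at 54.4% and 98.7% in CAST-/129+ and at 110.2% and 162.5% in CAST-/129-. Vim, the other of the 3, was above wild type in each clone, at 124.1%, 174.6% and 323.3%. The part of fibroblasts in the Kitl level was not tested. In RNA from whole cultures fewer cells of a type and less RNA per cell cannot be told apart.

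**Figure D2:**
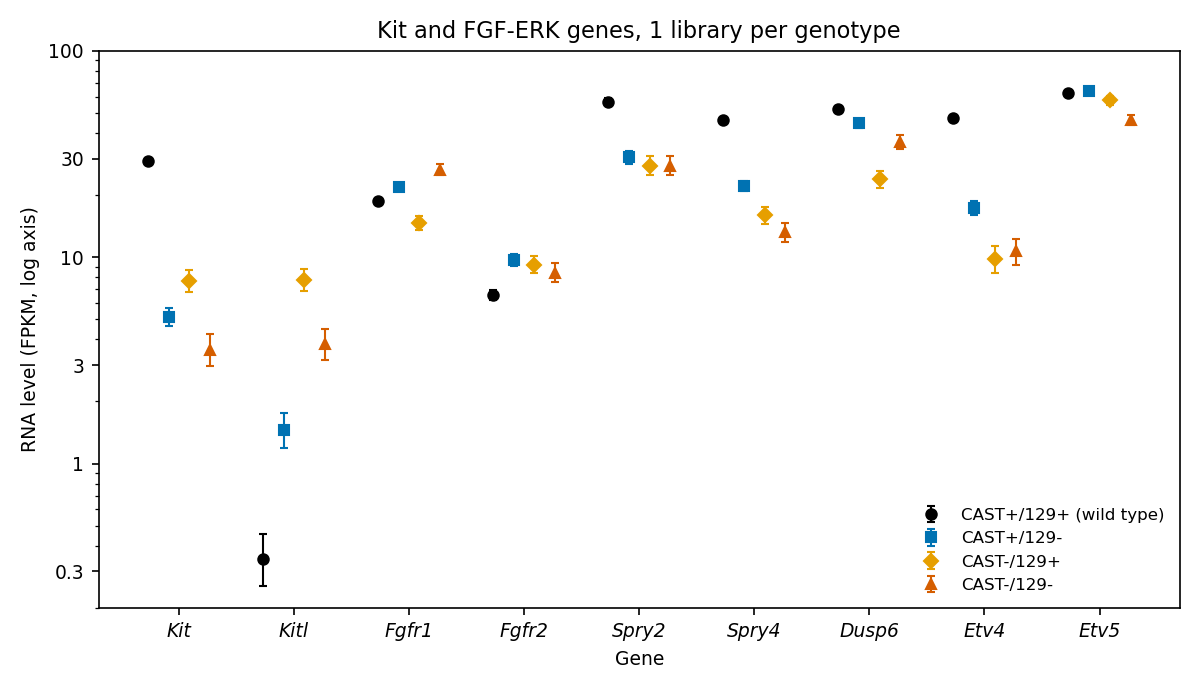
RNA level (FPKM, log axis) of the 9 genes in the 4 libraries, with exact Poisson 95% intervals for counting error. Kit is at 29.3 FPKM in wild type and between 3.56 and 7.70 in the deletion clones, while Kitl is at 0.344 and between 1.46 and 7.77.

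Neither FGF receptor was past 3-fold in any clone. Fgfr1, a receptor for FGF4 that ESCs express with Fgfr2, had 18.8 FPKM in wild type, against 21.8 in CAST+/129-, 14.6 in CAST-/129+ and 26.5 with both copies deleted. The clones lay on both sides of the wild type, and CAST-/129+ was the lowest library. These levels were 116% (110 to 122), 77.9% (71.5 to 84.7) and 141% (132 to 151) of wild type, with log2 ratios of 0.18, -0.29 and 0.42, of which the first and last turned to -0.41 and -0.20 when every library was divided by its Actb level. That division lowered the median of expressed genes to -0.54 and -0.64 in the same clones. Fgfr1 lies on chromosome 8, where the 545 expressed genes had median log2 ratios of 0.07 in CAST+/129-, -0.34 in CAST-/129+ and -0.28 in CAST-/129-. The 24 neighbours of Fgfr1 had medians of -0.04, -0.39 and -0.34. Their part in the Fgfr1 values was not tested. Of its exonic bases 761 are shared with a second annotation entry of the same name and were not counted.

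Fgfr2 had 6.56 FPKM in wild type, against 9.72 in CAST+/129-, 9.20 in CAST-/129+ and 8.41 with both copies deleted, so that all 3 clones were higher. The levels were 148% (136 to 162), 140% (125 to 157) and 128% (114 to 144) of wild type, and the log2 ratios of 0.38, 0.32 and 0.23 turned to between -0.23 and -0.07 after division by Actb. That division lowered the median of expressed genes to between -0.64 and -0.50. Among the clones, CAST-/129+ was at 94.6% (84.1 to 106.4) of CAST+/129- and CAST-/129- was at 91.5% (79.3 to 105.5) of CAST-/129+. The annotated span of Fgfr2, chr7:137305965-140315033, overlaps that of Ctbp2. Of its exonic bases 314 are shared with another annotation entry and were not counted.

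Epithelial tissues also express Fgfr2, and epithelial RNA differed between the same libraries. Of 13 trophectoderm markers, among them the simple epithelial keratins Krt7, Krt8 and Krt18, 4 were past 3-fold higher in CAST+/129-, 5 in CAST-/129+ and 5 in CAST-/129-. Their summed level was 60.3 FPKM in wild type and 410.1, 637.6 and 603.9 in the clones. In the clones most of it was Krt8 and Krt18, which in wild type were at 14.6 and 1.81 FPKM. Tead4, the highest of the list in wild type at 28.3 FPKM, was lower in the clones instead, at 90.7%, 58.8% and 36.8% of wild type. The placental factor Cdx2 was at 0.0712 FPKM in wild type and at most 1.60 in the clones. The part of such cells in the Fgfr2 levels was not tested.

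Among the feedback inhibitors, Spry2 and Spry4, Sprouty proteins that hold back RAS signalling below the receptor, were lower in all 3 clones. Spry2 had 56.6 FPKM in wild type, against 30.4 in CAST+/129-, 27.7 in CAST-/129+ and 27.8 with both copies deleted. The clones lay close together, at 53.8% (49.6 to 58.2), 48.9% (43.7 to 54.7) and 49.1% (43.7 to 54.96) of wild type, and CAST-/129- was at 100.3% (86.1 to 116.9) of CAST-/129+. Spry2 was therefore as low in the monoallelic clones as in the biallelic one within counting error, and its log2 ratios of -0.82, -0.94 and -0.93 did not reach 3-fold.

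Spry4 had 46.2 FPKM in wild type, against 22.2 in CAST+/129-, 16.0 in CAST-/129+ and 13.2 with both copies deleted. The libraries stood in this order, and CAST-/129- was at 82.8% (71.8 to 95.5) of CAST-/129+. Spry4 was at 48.1% (45.2 to 51.1), 34.6% (31.3 to 38.1) and 28.7% (25.7 to 31.9) of wild type. The log2 ratio of -1.54 in CAST-/129- fell just short of 1.58, after -0.94 and -1.33 in the monoallelic clones. It passed 3-fold at -1.73 with a pseudo-value of 1 and at -2.08 after division by Actb, which also took CAST-/129+ past it at -1.78. That division lowered the median of expressed genes as well, to -0.64 in CAST-/129- and -0.50 in CAST-/129+.

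Dusp6, the phosphatase that inactivates ERK in the cytoplasm, had 52.5 FPKM in wild type, against 44.6 in CAST+/129-, 23.8 in CAST-/129+ and 36.1 with both copies deleted. Its lowest level was in CAST-/129+ and not in the biallelic clone, which was at 151.9% (133.6 to 172.8) of CAST-/129+. Against wild type, Dusp6 was at 85.1% (80.2 to 90.3), 45.4% (40.8 to 50.3) and 68.9% (63.0 to 75.2), with log2 ratios of -0.21, -1.02 and -0.49.

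The ETS factors of the PEA3 family, which carry ERK signals to promoters, parted from each other. Etv4 had 47.1 FPKM in wild type, against 17.3 in CAST+/129-, 9.78 in CAST-/129+ and 10.7 with both copies deleted. All 3 clones were well below the wild type, and CAST-/129- was at 109.0% (88.6 to 134.1) of CAST-/129+. Etv4 was at 36.6% (33.6 to 39.7), 20.7% (17.8 to 24.1) and 22.6% (19.5 to 26.1) of wild type. Its log2 ratios were -1.27, -1.89 and -1.80, past 3-fold in CAST-/129+ and in CAST-/129-, and after division by Actb also in CAST+/129- at -1.82. With a pseudo-value of 10 they were -1.53 in CAST-/129+ and -1.47 in CAST-/129-, short of 3-fold. Division by Actb lowered the median of expressed genes as well, to -0.54 in CAST+/129-.

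Etv5 had 62.7 FPKM in wild type, against 63.6 in CAST+/129-, 57.5 in CAST-/129+ and 46.2 with both copies deleted, the highest level of the 9 genes in every library. The wild type and CAST+/129- were within counting error of each other, at 101.4% (97.2 to 105.8), while CAST-/129+ was at 91.7% (86.6 to 97.2) and CAST-/129- at 73.7% (69.05 to 78.5). Its log2 ratios ran from -0.41 to 0.02 in the main setting. Over all settings, division by Actb included, they ran from -0.65 to 0.08 in CAST+/129-, from -0.67 to -0.06 in CAST-/129+ and from -1.08 to -0.34 in CAST-/129-. The family member Etv1, which was named after its values were seen, had 8.13 FPKM in wild type and 14.2, 7.87 and 6.93 in the clones.

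Over the 9 genes, 1 was past 3-fold lower in CAST+/129- (Kit), 1 in CAST-/129+ (Etv4) and 2 in CAST-/129- (Kit and Etv4), and 0 were past 3-fold higher in any clone. Of all 31498 genes, 0.305%, 0.33% and 0.511% were past 3-fold lower and 0.321%, 0.473% and 0.819% were past 3-fold higher, in the same order. Many of those genes are too low to pass, and of the 9528 genes with a mean of at least 5 FPKM 0.798%, 0.903% and 1.47% were past 3-fold lower. The median log2 ratio of the 9 genes was -0.21 in CAST+/129-, -0.94 in CAST-/129+ and -0.49 in CAST-/129-, where the median of all genes was 0.00 and that of the 13826 genes with a mean of at least 1 FPKM was -0.03, -0.06 and -0.08. The 3 comparisons share the wild type library, so their values are not independent. The 9 genes were chosen with earlier results of these data known, and the paper names Kit among its down-regulated genes. The shares over all genes are therefore a description and not a test of the 9 genes.

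The order of levels in wild type ran Etv5, Spry2, Dusp6, Etv4, Spry4, Kit, Fgfr1, Fgfr2 and Kitl. Etv4 and Spry4, at 47.1 and 46.2 FPKM, were the only neighbours in that order with overlapping counting intervals. In CAST-/129- the order was Etv5, Dusp6, Spry2, Fgfr1, Spry4, Etv4, Fgfr2, Kitl and Kit, so that Kit moved from the sixth place to the last. There the intervals of Spry2 and Fgfr1, of Spry4 and Etv4, of Etv4 and Fgfr2, and of Kitl and Kit overlapped.

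**Figure D3:**
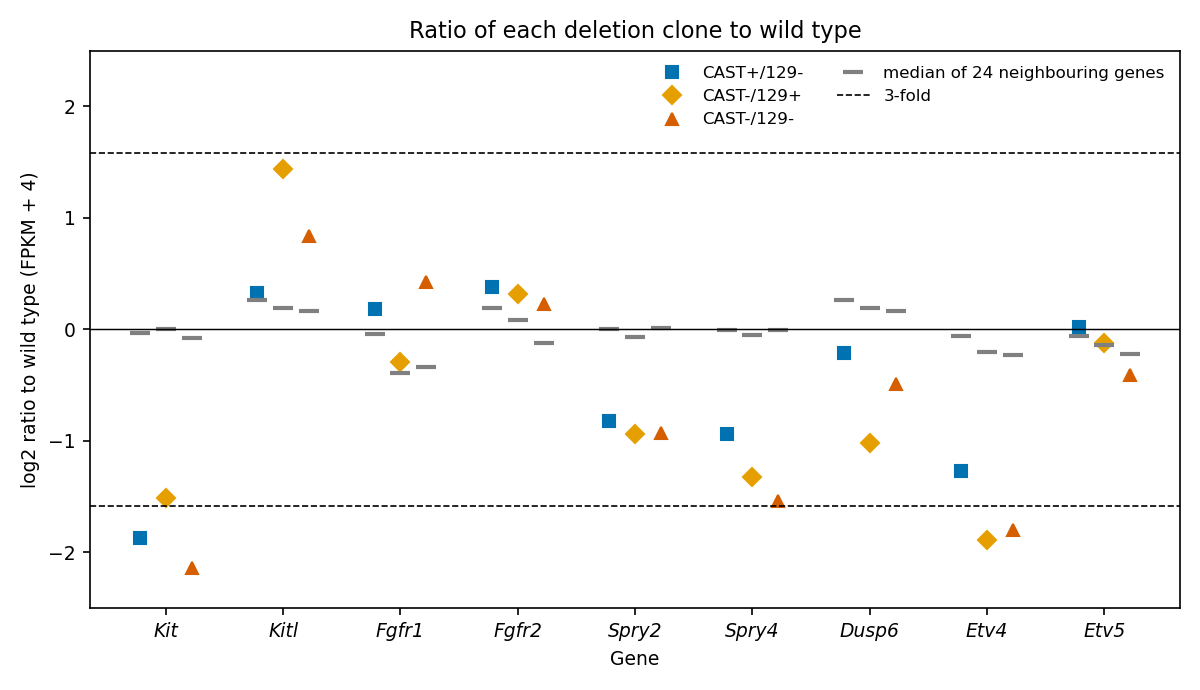
Log2 ratio of FPKM plus 4 of the 9 genes in each deletion clone to wild type, with the median of the 24 expressed neighbours of each gene as grey bars and 3-fold as dashed lines. Kit and Etv4 are the genes below the lower line, Spry4 in CAST-/129- sits at -1.54 just above it, and no gene passes the upper line.

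Each member was set beside the median of its 24 expressed neighbours. For Kit, Spry2 and Spry4 the neighbour medians lay between -0.08 and 0.01 in every clone, and those of Etv4 were -0.06, -0.20 and -0.23 against its own -1.27, -1.89 and -1.80. Kitl and Dusp6 share chromosome 10 and have overlapping sets of neighbours, of which that of Kitl can hold Dusp6 itself. Both sets had medians of 0.26, 0.19 and 0.16. Both genes were set apart from them in CAST-/129+, Kitl by 1.25 above and Dusp6 at -1.21 relative to that median. Etv5 stayed within 0.19 of its neighbour median in every clone, and Fgfr1 in CAST-/129+ was 0.10 above its own.

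The rest of the pathway was read through lists of genes by role. Of 22 FGF ligands, 0 were past 3-fold in CAST+/129-, 2 were higher in CAST-/129+ and 2 in CAST-/129-, and none was lower. These were Fgf5 and Fgf8. Fgf5, a marker of the primed epiblast, had 0.129 FPKM in wild type, against 4.01 in CAST+/129-, 26.9 in CAST-/129+ and 24.6 with both copies deleted. Fgf8, made by the gastrulating epiblast, had 0.119 FPKM in wild type, then 1.01, 19.6 and 21.5. Of 8 counted primed epiblast markers, with Fgf5 among them, 1, 4 and 3 were past 3-fold higher in the clones, and 2, 2 and 1 were below wild type. Foxd3 was at 59.2%, 46.2% and 27.4% of wild type, and Zic2 at 57.1% and 79.4% in the monoallelic clones and at 104.3% in CAST-/129-. Wild type held 8 and 4 alignments of Fgf5 and Fgf8, so that their levels there are loosely set. Fgf4, the main FGF of naive ESCs and a known target of Sox2 with Oct4, had 53.8 FPKM in wild type, against 37.3 in CAST+/129-, 34.1 in CAST-/129+ and 22.5 with both copies deleted, or 69.3%, 63.5% and 41.8% of wild type.

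Summed over the ligands, the level was 69 FPKM in wild type and 52.8, 102.0 and 91.8 in the clones. Fgf4 made up most of it in wild type, and in CAST-/129- Fgf4, Fgf5 and Fgf8 stood at 22.5, 24.6 and 21.5 FPKM. Fgf10, which was named after its values were seen, had 7.20 FPKM in wild type and 0.489, 6.96 and 2.05 in the clones. After adding 4 its ratios stayed under 3-fold. Of the 22 ligands, 11, 11 and 10 were above wild type and 8, 9 and 9 below. Only 9 of the 22 had a mean of at least 1 FPKM, and some of these directions rest on few alignments.

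Of 9 other FGF receptors and co-receptors, 1 was past 3-fold lower in each clone and none was higher. It was Klb, beta-Klotho, the co-receptor for endocrine FGFs, with 16.9 FPKM in wild type and 2.13, 1.33 and 1.09 in the clones. The highest of the list by mean level were Sdc4, Gpc4 and Sdc1, which carry heparan sulphate that FGFs bind. Sdc4 was at 58.6 FPKM in wild type and at 72.7, 50.2 and 38.1 in the clones. Gpc4 was at 40.3% of wild type in CAST+/129- and at 102.6% and 83.6% in the others. Fgfr4, which was named after its values were seen, had 9.84 FPKM in wild type and 1.69, 1.86 and 1.21 in the clones, or 17.2% (13.4 to 21.8), 18.9% (13.4 to 25.9) and 12.3% (7.89 to 18.2). After adding 4 these ratios stayed under 3-fold.

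Of 10 other receptors and ligands, those of the type III class to which Kit belongs and the VEGF receptor Kdr, Pdgfra was past 3-fold lower in all 3 clones and Csf1 past 3-fold higher in CAST+/129- and CAST-/129-. Pdgfra, the PDGF receptor that marks primitive endoderm and lies beside Kit on chromosome 5, had 22.6 FPKM in wild type, against 1.60 in CAST+/129-, 2.55 in CAST-/129+ and 4.48 with both copies deleted. Csf1, the macrophage growth factor, had 0.612 FPKM in wild type, then 12.5, 6.81 and 25.7. Csf1r had 0.0077 FPKM in wild type, from 1 alignment, and 1.29, 3.09 and 4.30 in the clones. Pdgfrb was at 91.6%, 174.1% and 385.9% of wild type. Of these 10 receptors and ligands, 7, 7 and 8 were above wild type and 3, 2 and 1 below. A mean of at least 1 FPKM was reached by 7 of them. Pdgfa, a ligand of Pdgfra, was at 10.3 FPKM in wild type and at 31.4, 29.2 and 24.6 in the clones. It did not pass 3-fold, and Pdgfc, another ligand of Pdgfra, was at 83.2%, 94.9% and 244.8% of wild type. Of 10 primitive endoderm markers, 3 were past 3-fold lower in each clone, Gata6 and Pdgfra among them, and of 10 macrophage and blood markers 1, 1 and 3 were past 3-fold higher, with Lyz2 at 0 in wild type and at 95.5 FPKM in CAST-/129-. Emr1 and Tyrobp, also past 3-fold in CAST-/129-, went from 0.062 and 0 FPKM in wild type to 8.51 and 8.51 there. Cd68, the second highest of the macrophage and blood list, had 11.7 FPKM in wild type and 5.62, 7.62 and 9.14 in the clones. Fcgr1 had at most 2 alignments in any library. Of these 10 markers, 8, 8 and 6 were above wild type and 2, 1 and 3 below. A mean of at least 1 FPKM was reached by 6 of them. Of the endoderm list, 0, 3 and 3 were above wild type, among them Foxa2 in CAST-/129+ and CAST-/129- (9.05 and 11.4 FPKM, from 1.36) and its highest gene, Col4a1, in CAST-/129- (162.1%). Their part in the Kit and Csf1 values was not tested, and the blood cell markers Gata1 and Tal1 were at 1.32 FPKM or less in every library.

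Among the kinases and adaptors between receptor and nucleus, a single gene passed. Of 29 RAS-ERK core genes, 1 was past 3-fold lower in each clone and none higher, and the list medians were -0.18, -0.19 and -0.07. The gene was Mras, a RAS relative that takes part in RAF activation, with 25.6 FPKM in wild type and 3.16, 2.40 and 5.56 in the clones. The adaptor Gab1 was at 123.2%, 78.2% and 83.0% of wild type.

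Of 15 other feedback inhibitors, 14 could be counted and 0 passed 3-fold in either direction in any clone. The highest were Dusp9, Dusp4 and Spred2, all inhibitors of ERK signalling. Dusp9 had 93.8 FPKM in wild type, against 110.6 in CAST+/129-, 95.7 in CAST-/129+ and 117.9 with both copies deleted. Spred2 was lower in each clone, at 63.9%, 52.8% and 54.8% of wild type, and Dusp4 was at 107.0%, 70.7% and 58.6%. Most of the list lay on the other side, with 9, 9 and 10 of the 14 above wild type and 5, 5 and 4 below. The list medians were 0.16, 0.17 and 0.33.

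Of 22 other ETS factors and ERK-induced genes, 0 passed in CAST+/129-, Egr1 was past 3-fold lower in CAST-/129+ and Ccnd1 past 3-fold higher in CAST-/129-. Ccnd1, cyclin D1, had 22.1 FPKM in wild type, against 21.7 in CAST+/129-, 25.6 in CAST-/129+ and 75.7 with both copies deleted. Egr1, an immediate early gene, had 14.0 FPKM in wild type, then 2.59, 1.22 and 2.99, and it was named after its values were seen. Ier2, another immediate early gene, was at 83.99%, 44.2% and 43.7% of wild type. The immediate early genes Fos and Jun gave another picture. Fos was between 1.19 and 2.05 FPKM in all libraries. Jun was at 5.34 FPKM in wild type and at 8.61, 7.45 and 19.6 in the clones. Myc, among the 3 highest of the list by mean level, was at 197.2%, 139.5% and 150.8% of wild type. Of the 22 genes, 14, 12 and 15 were above wild type and 8, 10 and 7 below. The list medians were 0.10, 0.03 and 0.15.

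**Figure D4:**
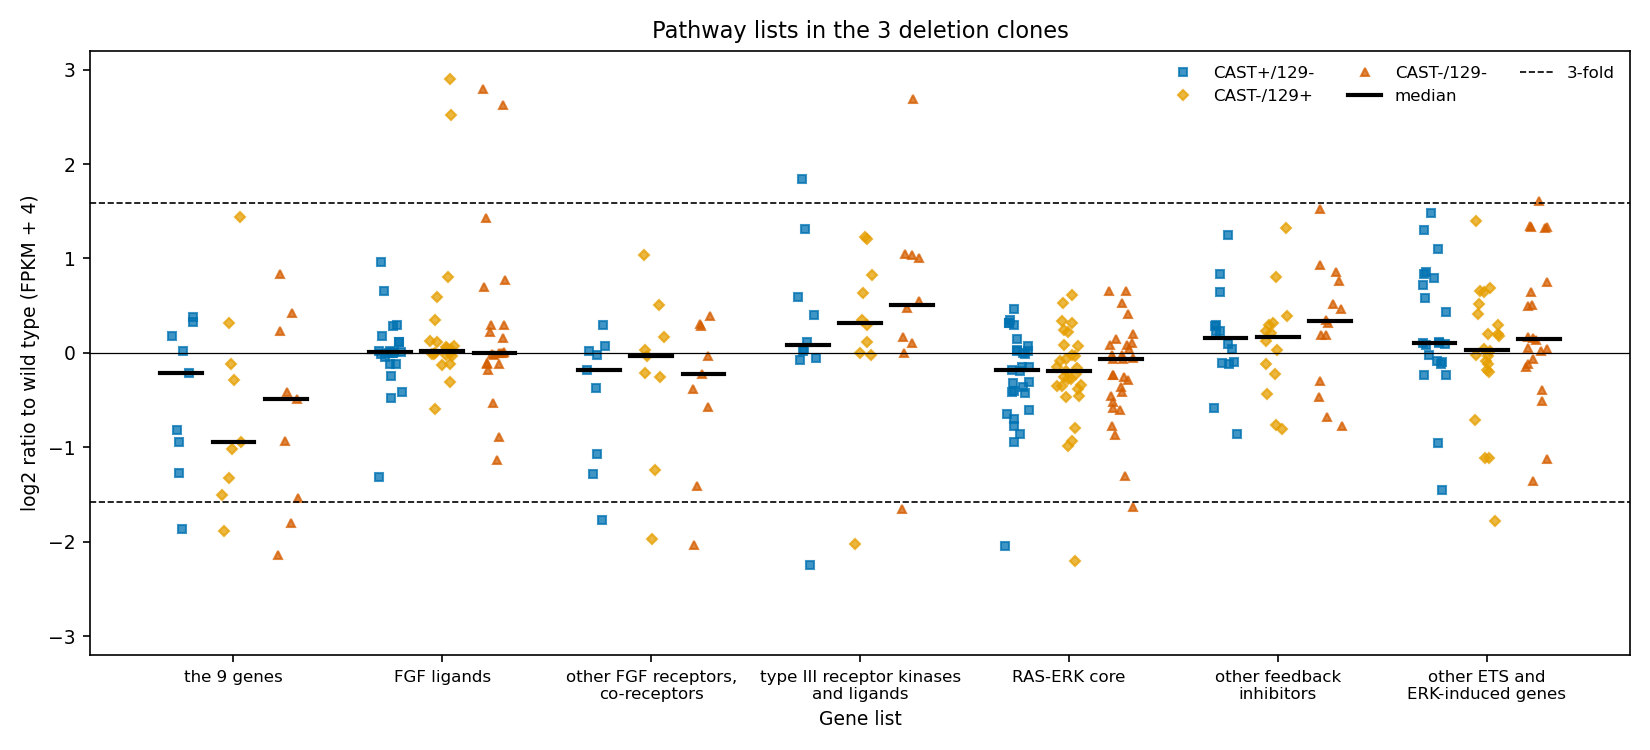
Log2 ratio to wild type (FPKM plus 4) of every counted gene in the 9 genes and 6 pathway lists in each deletion clone, with the list median as a black bar and 3-fold as dashed lines. The list medians outside the 9 genes stay between -0.22 and 0.51, and Fgf5 and Fgf8 stand out above the upper line in CAST-/129+ and CAST-/129-.

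The genes with a pattern most like that of each member were sought by the distance between the 3 log2 ratios, over 9527 other genes with a mean of at least 5 FPKM. Kit was nearest to Sorl1, Sohlh2 and Parvb, at distances of 0.377, 0.398 and 0.443, the largest distances among the 8 genes compared. Etv4 was nearest to 6430527G18Rik, Ppm1j and Itpk1 (0.145, 0.151 and 0.212), and Spry4 to Mmrn2, Naa11 and Klf5 (0.105, 0.111 and 0.148). Spry2 and Etv5, whose ratios were smaller, had neighbours within 0.062 and 0.032. Kitl had too low a mean level to be compared.

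H3K4me3 marks promoters that are active or ready for use, and H3K27ac marks those in active use. In unedited cells, both were counted within 2 kb on each side of the annotated start and given as a fold over the genome mean of the same library. A promoter was called marked at 5-fold or more, which 46.2% of 22350 protein-coding starts reached for H3K4me3 in F123, 28.7% for H3K27ac in F123 and 22.9% for H3K27ac in J1. Of the 9 genes, 8, 7 and 7 were marked.

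Apart from the start annotated for Fgfr2, which is shared with another gene, the feedback inhibitors had the most H3K4me3 and H3K27ac of the 9 genes. Spry2 was at 32.6-fold for H3K4me3 and 82.1-fold for H3K27ac in F123 and at 51.3-fold for H3K27ac in J1. Dusp6 was at 24.9-fold, 79.6-fold and 45.5-fold, and Spry4 at 22.5-fold, 54.9-fold and 39.7-fold, and for each mark these 3 genes lay at percentile 96.9 of all starts or higher. Etv5 was at 17.4-fold, 18-fold and 13.1-fold. Etv4, with less H3K4me3, was at 9.20-fold (7.48 to 11.2), 25.1-fold (19.2 to 32.3) and 30.2-fold (27.1 to 33.5).

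Kit was at 15.2-fold (12.9 to 17.7) for H3K4me3 and 22.2-fold (16.6 to 29.0) for H3K27ac in F123, from 163 and 53 alignments. H3K27ac at Kit in J1 was at 5.29-fold (4.05 to 6.78), just over the threshold. The J1 and F123 libraries differ in depth and in how often an alignment was seen, with 10.5 and 5.10 reads per distinct alignment, so the difference was not tested. Kitl, almost silent in wild type, was at 5.02-fold (3.77 to 6.55) for H3K4me3, just over the threshold, and at 1.68-fold (0.456 to 4.29) for H3K27ac in F123 from 4 alignments. Its promoter thus carried H3K4me3 near the threshold with H3K27ac not above the genome mean beyond counting error.

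Fgfr1 and Fgfr2 depended on the start used. At its annotated start Fgfr1 was at 2.70-fold for H3K4me3, but at the transcript start 6183 bases downstream it was at 11.9-fold (9.93 to 14.2), while H3K27ac there was 2.51-fold for F123 and 4.86-fold for J1. For Fgfr2, the annotated gene start lies 2.905 Mb upstream of the start used next and 1004 bases from that of Ctbp2, a transcriptional corepressor, and its 35.7-fold H3K4me3 and 109.7-fold H3K27ac in F123 cannot be told apart from the marks of Ctbp2. At the Fgfr2 transcript start with the most H3K4me3 and no start of another gene within 2 kb, chr7:137409705-137409705, Fgfr2 was at 8.46-fold (6.81 to 10.4) for H3K4me3, 4.19-fold (2.01 to 7.70) for H3K27ac in F123 and 1.37-fold (0.780 to 2.22) in J1. With starts chosen this way, which was added after the data had been seen, 9, 6 and 6 of the 9 genes were marked, where 38.4%, 23.3% and 18.7% of 19877 protein-coding genes with such a start were. The choice of start favours H3K4me3, so its count is a description. Under 5-fold for H3K27ac were then Kitl and both FGF receptors. The intervals of Fgfr1 (0.922 to 5.47 in F123 and 3.68 to 6.30 in J1) and of Fgfr2 in F123 held 5-fold.

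**Figure D5:**
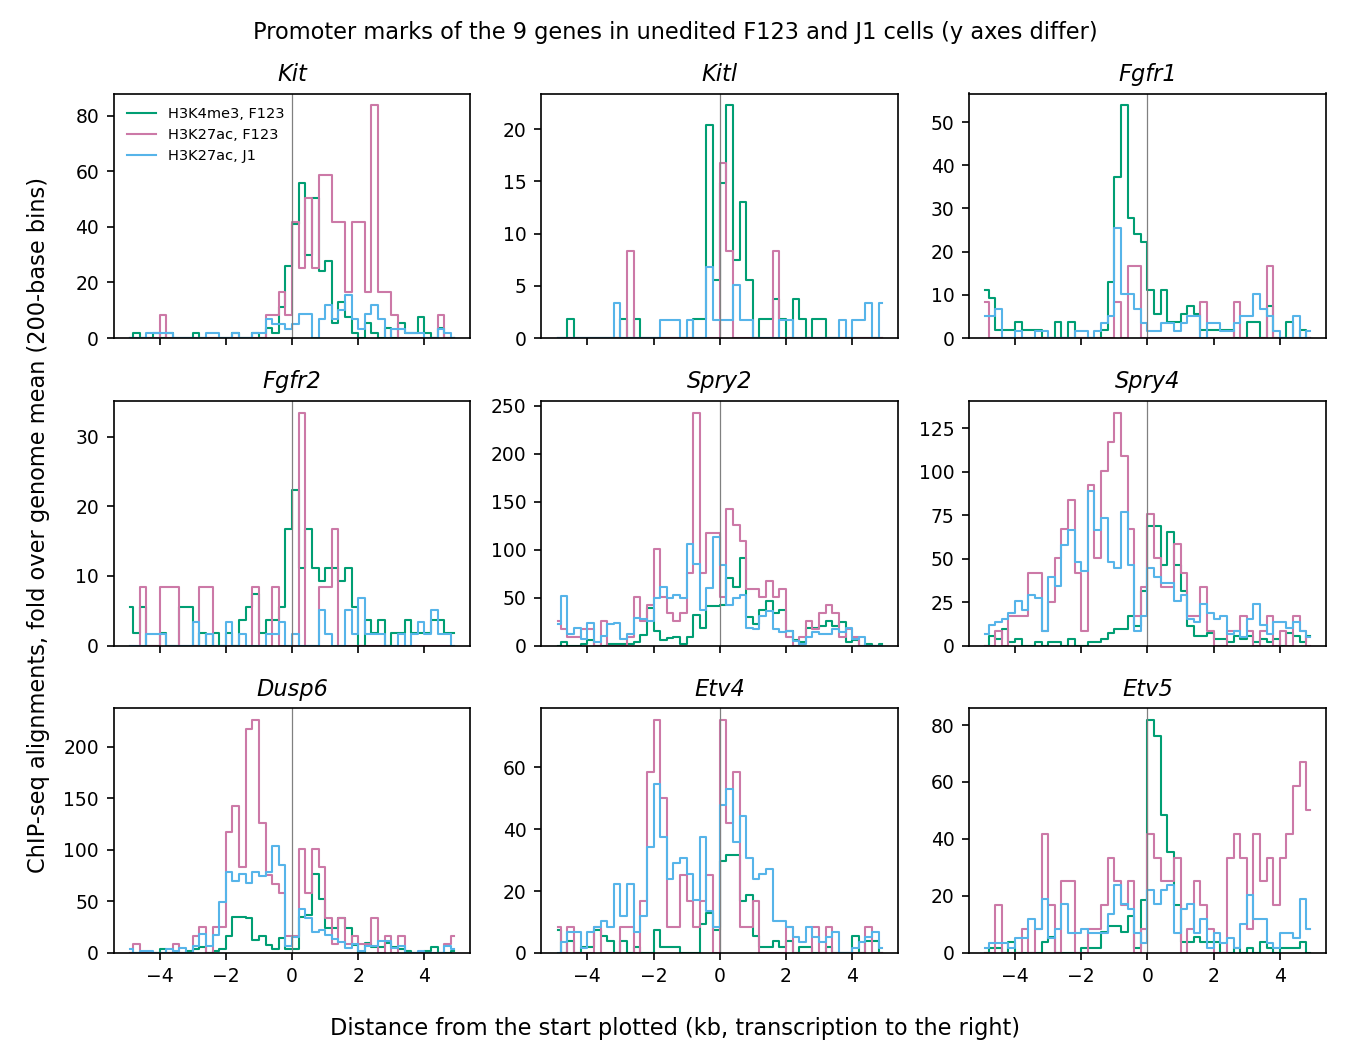
ChIP-seq alignments in 200-base bins within 5 kb of the transcript start with the most H3K4me3 and no other gene start within 2 kb, as fold over the genome mean, for H3K4me3 and H3K27ac in F123 and H3K27ac in J1 (the y axes differ). Spry2, Spry4 and Dusp6 carry broad H3K27ac on both sides of the start, while Kitl, Fgfr1 and Fgfr2 have an H3K4me3 peak and were under 5-fold for H3K27ac within 2 kb, with a J1 bin of 25.6-fold upstream of Fgfr1.

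Unspliced RNA could not be read from these files. The 8 genes without Fgfr2 have 277679 bases of intron, on which lay 75, 14, 8 and 18 sense alignments from wild type to CAST-/129-, against 29570, 9989, 4005 and 3958 on their exons. Kit had 0 such alignments in every library over 75976 bases. Fgfr2 was left out, with 6009 sense and 23992 antisense alignments in wild type on the 2228680 bases of intron in its long annotated span. Ctbp2 lies on the same strand, and bases within the spans of both genes were not counted as introns. The source of these alignments was not tested. Whether mapping was limited to transcripts and splice junctions is not given in the sources used here, so these counts do not show how much of the exon signal is mature RNA. Transcription and RNA decay cannot be told apart.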

How the data were processed

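Strand-specific RNA-seq of polyadenylated RNA (4 libraries) and ChIP-seq (3 libraries) were deposited by the authors as alignments to mm9, made per the methods with Novoalign and USeq for RNA and per the labels with Bowtie. Identical alignments were collapsed in the deposited files, whose score column holds the read counts of each distinct alignment, with 1.84 to 2.58 reads per RNA alignment. The H3K4me3 antibody is named differently in the labels and in the methods.

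Distinct alignments were assigned by midpoint and strand to exonic bases that belong to 1 gene in GENCODE M1 on NCBIM37, and genes with under 200 such bases were left out. FPKM used the alignments on these genes as library size, and a pseudo-value of 4 with a 3-fold threshold followed the study's methods. With 1 library per condition no statistical test was run. Intervals are exact Poisson or Clopper-Pearson at 95%.

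The 9 genes, the pathway and marker lists and the tests were chosen with earlier results of these data known. Named beyond the 9 genes were Sox2, list genes past 3-fold in CAST-/129-, the 3 highest by mean FPKM of each list, the 3 nearest genes and any gene said to be chosen later, which includes Fgfr4, Fgf10, Egr1, Etv1, Fos, Jun, Gata1, Tal1, Cdx2, Pou5f1, Igfbp7, Foxd3, Zic2, Kdr, Pdgfc, Tead4, Foxa2, Fcgr1 and Fap. Thy1, Csf1r and Pdgfrb were also named after their values were seen. Sequences were read from the NCBIM37 genome at GENCODE M1 coordinates. That of Spry4 is not reported here. On simulated counts of CAST-/129- against wild type over 31498 genes, 100 of 100 genes raised 6-fold and 99 of 100 lowered 6-fold were called, and 0 unchanged ones. That step is well past the 3-fold threshold, so it does not show how often smaller changes are called or how far clones of 1 genotype differ. Genes with little RNA can be missed, as Kitl was at 1099% of wild type in CAST-/129-. Python 3.11.15, numpy 2.4.6 and scipy 1.17.1 were used. Alternatives covered size factors, the library total, reads before collapsing, both strands, pseudo-values of 1 and 10, shared bases, thinning, a 2-fold threshold, the promoter window and start, and, added later, division by Actb.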

Additional observations from a re-analysis of the deposited data

Results flagged for a closer look

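Fgfr1 lay on opposite sides of the wild type in the monoallelic clones, at 115.9% in CAST+/129- and at 77.86% in CAST-/129+, and was picked out for that. The difference was not tested, as each clone has 1 library. The median log2 ratio of the genes of chromosome 8 was 0.07 and -0.34 in the same clones, and its part in the values was not tested.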

How the results depend on the processing

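No paired analysis was possible because each genotype has 1 library and no library carries a replicate number, and no library could be left out. With a pseudo-value of 1, the genes past 3-fold were 287 higher and 348 lower in CAST+/129-, 427 and 407 in CAST-/129+ and 701 and 565 in CAST-/129-, and with 10 they were 50 and 24, 75 and 32, and 120 and 50. Division by Actb, itself at 165%, 151% and 167% of wild type, shifted the median log2 ratio of genes with a mean of at least 5 FPKM to -0.54, -0.50 and -0.64, and gave 52 and 224, 75 and 241, and 115 and 393. A 2-fold threshold gave 285 and 401, 384 and 482, and 630 and 605. Scaling to the total of each file left 62 genes lower in CAST+/129- and 106 in CAST-/129-. Of the 9 genes, a pseudo-value of 10 left 0 past 3-fold lower in each clone. A pseudo-value of 1 left 2 lower and 1 higher in CAST-/129+ and 3 lower, with Spry4, and 1 higher in CAST-/129-. Division by Actb left 2 lower in CAST+/129- and 3 in CAST-/129+, and a 2-fold threshold 2 lower in CAST+/129- and 4 lower and 1 higher in CAST-/129+. The cause of these shifts was not tested beyond the settings themselves. Kit in CAST+/129- and CAST-/129- and Etv4 in CAST-/129+ and CAST-/129- stayed past 3-fold under every other setting. No called value changed its direction. The counts at the end of Kit exon 9 and on the Kitl exon that can be skipped were too few to compare between libraries. That Kitl exon had 0 alignments in wild type, the deepest library, and 6 in CAST-/129-. The part of depth in these counts was not tested.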
